A study of Mus musculus with 10 samples.

Results

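Blocking R-spondin with a decoy receptor in vivo was compared here with a control virus, in cells sorted from the mouse small intestine for activity of the Lgr5 locus. The comparison holds 5 of the 8 libraries in the deposited expression table, chosen by their column names, and the series labels 10 samples in all. The LGR5-ECD group, labelled loss of R-spondin function, had 3 biological replicates from mice given an adenovirus that encodes the extracellular domain of LGR5. The Fc control group had 2 biological replicates from mice given an adenovirus that encodes Fc. A further group of 3 replicates was given a virus encoding Rspo1, the R-spondin ligand. It counted in the filter that chose the genes to test, and it shared the estimate of spread. Its own difference from Fc is given for some genes and lists. All mice were Lgr5-eGFP-IRES-CreER animals, in which GFP and an inducible Cre are read from the Lgr5 locus. The virus was injected into a vein, and the cells were dissociated from proximal jejunum and sorted as GFP positive. The labels give no age, sex, dose, time after injection or sort threshold. The control columns carried a name that states neither the sort nor the sample, and both were read as the GFP-positive Fc samples that the series describes. Fc samples sorted as GFP negative were not used here. Because GFP reports the Lgr5 locus itself, a change in Lgr5 is measured among cells that had passed a gate set by the same locus.

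LGR5 is the best known marker of intestinal stem cells, and its extracellular part binds R-spondins outside the cell. R-spondins bound to LGR4 or LGR5 take the ubiquitin ligases RNF43 and ZNRF3 off the cell surface, so that Frizzled receptors stay there and Wnt signals through beta-catenin and TCF factors are stronger. A soluble extracellular domain catches R-spondin before it reaches the cell. The daughters of the stem cells become absorptive enterocytes or one of the secretory types, which are Paneth, goblet, enteroendocrine and tuft cells.

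Sequences of 4 promoters are shown as examples of genes that moved. They are those of a pair of defensins of Paneth cells, the stem cell marker Scn2b, and the enterocyte genes Sis and Krt20. Each window runs from 250 bases before to 50 bases after the transcription start, in RefSeq on mouse build GRCm38.p6, written 5′ to 3′ on the gene's strand. Defa21 lies on the plus strand at chr8:21025295-21025594, and the window of Defa22 at chr8:21162027-21162326 on the plus strand is identical to it. Scn2b lies on the plus strand at chr9:45117626-45117925. Sis lies on the minus strand at chr3:72967814-72968113, and Krt20 lies on the minus strand at chr11:99438104-99438403. Capitals in Defa21 and Scn2b mark words that TCF factors are known to bind, searched on both strands: CTTTGAA, its variant CTTTGAT, the form CTTTGTA and the form CTTTGTT. Capitals in Sis and Krt20 mark words that the intestinal CDX factors are known to bind, searched as TTTATNA and in the form TTTATNG on both strands.
Defa21: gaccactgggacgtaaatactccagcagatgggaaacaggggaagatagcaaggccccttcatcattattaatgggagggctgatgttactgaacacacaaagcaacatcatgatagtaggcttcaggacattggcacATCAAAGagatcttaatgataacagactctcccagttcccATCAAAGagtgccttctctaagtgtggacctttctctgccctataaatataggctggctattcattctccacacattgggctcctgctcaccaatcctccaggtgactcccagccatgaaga
Scn2b: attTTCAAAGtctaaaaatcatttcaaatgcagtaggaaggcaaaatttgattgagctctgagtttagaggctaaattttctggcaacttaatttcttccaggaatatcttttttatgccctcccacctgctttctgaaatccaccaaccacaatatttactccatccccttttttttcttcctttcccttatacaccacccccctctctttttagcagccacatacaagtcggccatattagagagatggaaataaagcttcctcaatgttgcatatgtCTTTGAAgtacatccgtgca
Sis: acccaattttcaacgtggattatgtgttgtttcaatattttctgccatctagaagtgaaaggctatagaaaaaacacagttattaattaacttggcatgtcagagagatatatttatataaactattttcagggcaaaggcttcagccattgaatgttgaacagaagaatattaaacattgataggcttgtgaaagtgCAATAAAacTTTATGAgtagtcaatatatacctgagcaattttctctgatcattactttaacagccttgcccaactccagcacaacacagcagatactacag
Krt20: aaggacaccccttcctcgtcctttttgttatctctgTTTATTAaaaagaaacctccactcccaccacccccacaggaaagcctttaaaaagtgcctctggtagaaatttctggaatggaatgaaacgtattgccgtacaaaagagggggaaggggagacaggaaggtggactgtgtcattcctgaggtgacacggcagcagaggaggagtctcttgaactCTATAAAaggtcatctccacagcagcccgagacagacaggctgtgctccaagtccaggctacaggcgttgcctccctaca

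In the printed windows the TCF words of Defa21 began 112 and 72 bases before the start. Those of Scn2b began 247 bases before the start and 30 bases after it. The CDX words of Sis began 52 and 43 bases before the start, and those of Krt20 214 and 30 bases before it. A TCF word was present in 23.3% of the 43 promoters found for genes called higher with LGR5-ECD, in 21.7% of the 23 found for genes called lower, and in 11.9% of the 9182 found for all genes tested. A CDX word was present in 30.2%, 17.4% and 13% of the same sets. Among the promoters of genes called higher, 6 belong to defensin alpha genes, which are near copies of each other, and 4 of these 6 hold a TCF word and 4 a CDX word. Without the defensins the shares among genes called higher were 16.2% for TCF words and 24.3% for CDX words, over 37 promoters. The CDX words also match TATA boxes, and the later word of Krt20 is one (CTATAAA). The 1 CDX word of Defa21 and of Defa22, left in small letters above, has these same letters. Each printed promoter holds 2 matches to the words marked in it, and in this the examples do not stand for their groups. Among other called enterocyte genes, Ace holds 1 CDX word, and Enpep, Xpnpep2, Slc51a and Slc7a9 hold none. The words were chosen after the sequences and calls were known, and a match is a description of letters, not a binding site.

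Levels were FPKM (fragments per kilobase of transcript, scaled to the size of the library), tested on the log2(FPKM + 1) scale with limma, and a gene is called where its Benjamini-Hochberg adjusted p over all genes tested was under 0.05. The files give no counts, and depth was estimated from the steps between low values. Relative to control 1 it came to 1.454, 2.319 and 0.265 in LGR5-ECD replicates 1, 2 and 3, and to 1.082 in control 2. Replicate 3 was thus the shallowest library, and 860 of the 11454 tested genes were listed at 0 there. The controls also differed from each other: 1166 tested genes were over 1 apart on the log2 scale, 791 of them higher in control 1 and 375 higher in control 2. Control 2 had low Paneth cell genes and high tuft cell genes, as given below, so each result is set against both controls. Rpl26, a ribosomal protein gene that every cell uses, was listed at 0 FPKM in LGR5-ECD replicate 3 and in control 2, so a 0 in this table may be a failed estimate. Epithelial markers were high in all 5 libraries, with a summed level of 3927 to 5160 FPKM in LGR5-ECD cells and 2893 to 3683 FPKM in Fc cells. Immune markers summed to 11.6 to 25.3 FPKM in LGR5-ECD cells and to 6.08 to 6.16 FPKM in Fc cells, and 11 of 24, among them Cd3e of T cells and Tyrobp and Emr1 of myeloid cells, were at 0 in every library. The leukocyte gene Ptprc was at 0.11 to 0.42 FPKM, and most of the sum came from Lyz2 and Cd68. Mesenchymal, endothelial, neural and red cell markers summed to 1.90 to 3.57 FPKM in LGR5-ECD cells and to 1.83 to 2.53 FPKM in Fc cells, and 11 of 21, among them Col1a1, Pdgfra, Cdh5 and Hbb-b1, were at 0 in every library.

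With LGR5-ECD, 51 genes were called higher and 31 were called lower than with Fc. These were 0.445% and 0.271% of the genes tested. The genes that rose included Paneth cell defensins, goblet cell products, enterocyte brush border genes and immediate early genes. Those that fell included Lgr5 and other genes of the crypt base. Of the 51 genes called higher, 36 were above Fc with Rspo1 as well, and 15 were below it. Of the 31 called lower, 12 were below Fc with Rspo1 as well, and 19 were above it. Both comparisons share the Fc libraries, so a high or low Fc value moves both differences the same way. The median Rspo1 minus Fc change over all genes tested was 0.16, and the share of all genes on each side was not counted. Among the 12, Nanos3, 1810053B23Rik and 9330175E14Rik reached 1 FPKM in the controls alone, so the filter fixed their direction. Each of the 82 genes had all 3 LGR5-ECD libraries on one side of both controls, and 78 differed from each control by at least 1 on the log2 scale. Among all genes tested, the groups did not overlap for 18.2% with LGR5-ECD higher and for 12.7% with LGR5-ECD lower. The counts of list members above or below both controls, given further on, are to be read beside these shares.

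The called changes ranged upward from 1.04 in genes that rose and downward from -1.03 in genes that fell, with adjusted p between 0.0184 and 0.04997. After median-ratio scaling, 45 genes were higher and 47 lower, and after quantile normalization 52 were higher and 56 lower, so the excess of rises depended on the scaling. No gene was called without control 2 (571 higher and 659 lower at an unadjusted p under 0.05), and 4 were called without LGR5-ECD replicate 2. Without control 1, 153 were called higher and 22 lower. Without the shallow replicate 3, 41 were higher and 23 lower, and 45 of the 82 remained called. An exact permutation test of 3 against 2 libraries cannot go below p = 0.1, so each call rests on the spread shared across genes and groups.

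**Figure D1:**
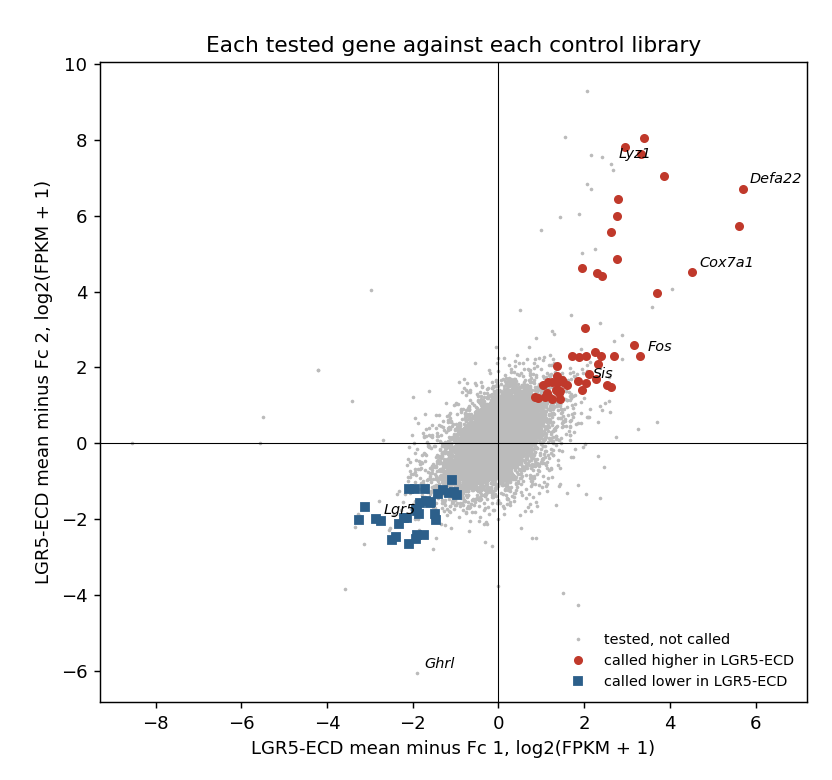
Each point is a tested gene, with its LGR5-ECD mean minus control 1 on the x axis and minus control 2 on the y axis, on the log2(FPKM + 1) scale. The 51 genes called higher (circles) and the 31 called lower (squares) lie in the corners where both differences have the same sign, while Ghrl was set apart by control 2.

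Lgr5, the receptor gene that marks crypt base stem cells, fell in LGR5-ECD cells. Its level was 8.31, 2.84 and 4.28 FPKM in LGR5-ECD replicates 1 to 3, against 40.6 and 22.02 FPKM in the controls. Every LGR5-ECD library lay below both controls. The log2 change was -2.43 (SE 0.36, limma adjusted p = 0.0250), made up of -2.86 against control 1 and -2.005 against control 2. The adjusted p ranged between 0.00707 without LGR5-ECD replicate 1 and 0.0653 without replicate 2, and was 0.0584 without control 1 and 0.0637 without control 2. In such bulk samples, fewer cells of a type and less RNA per cell cannot be told apart.

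The crypt base list held 35 genes, of which 34 were tested. Of these, 5 fell and none rose, and 23 had all LGR5-ECD libraries below both controls. The median change was -1.07 over the list, against 0.05 over all genes, and it was -1.53 against control 1 and -0.75 against control 2. The summed level of the list was 832, 468 and 433 FPKM in LGR5-ECD cells and 1857 and 934 FPKM in Fc cells. Beside Lgr5, the members that fell were Slc14a1, Phlda1, Cyp2e1 and Scn2b. Without LGR5-ECD replicate 2, control 1 or control 2 none of the 34 was called, without replicate 3 there were 2, and without replicate 1 there were 10.

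Slc14a1, a urea transporter, had 2.81, 0.89 and 0.84 FPKM in LGR5-ECD cells, against 19.4 and 6.65 FPKM in Fc cells. Its change was -2.40 (SE 0.43, limma adjusted p = 0.0451). Scn2b, a sodium channel subunit and a known marker of crypt base cells, had 2.15, 0.89 and 1.06 FPKM in LGR5-ECD cells, against 5.87 and 5.72 FPKM in Fc cells. Both genes were apart from the controls in each replicate. Cyp2e1, a cytochrome P450, had 2.81, 3.498 and 2.68 FPKM in LGR5-ECD cells and 11.02 and 10.9 FPKM in Fc cells. Its change of -1.59 (SE 0.29, limma adjusted p = 0.0454) was nearly the same against either control, -1.59 and -1.58. Phlda1, which encodes a pleckstrin homology-like protein, had 0.46, 0.72 and 0 FPKM in LGR5-ECD cells and 3.81 and 3.03 FPKM in Fc cells, with a limma adjusted p of 0.0490. The calls of Cyp2e1 and Phlda1 were lost whichever LGR5-ECD replicate was left out.

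Several of the best known stem cell genes had large differences but did not pass the test. Olfm4, a secreted glycoprotein abundant in crypt base cells, had 250.7, 53.6 and 36.3 FPKM in LGR5-ECD cells, against 770.6 and 292.4 FPKM in Fc cells. The groups did not overlap, yet replicate 1 lay close to control 2, and the change of -2.57 (SE 0.67) had a limma adjusted p of 0.113. Ascl2, a transcription factor of stem cells, had 5.24, 3.32 and 0.20 FPKM in LGR5-ECD cells and 28.9 and 10.97 FPKM in Fc cells, with a change of -2.57 (SE 0.60, limma adjusted p = 0.0843). Soat1 and Fstl1 lay just outside the threshold, with limma adjusted p of 0.0532 and 0.0537. Smoc2, another crypt base marker, had 43.4, 43.8 and 29.1 FPKM in LGR5-ECD cells and 56.2 and 29.8 FPKM in Fc cells, so its groups overlapped (change -0.10, SE 0.28).

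**Figure D2:**
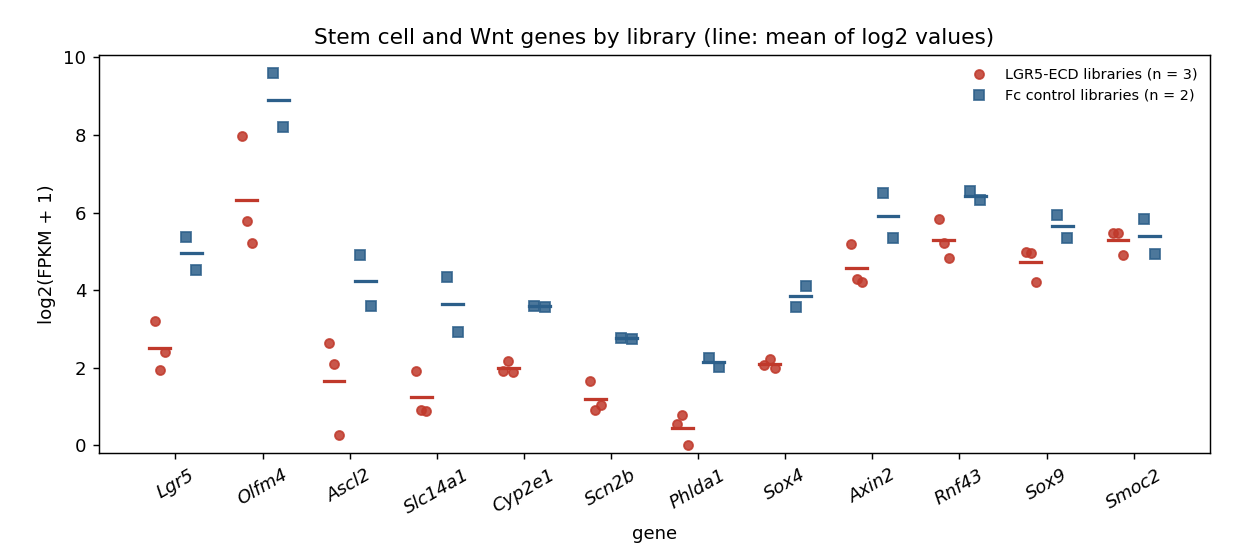
Levels of 12 stem cell and Wnt genes as log2(FPKM + 1) in each of the 3 LGR5-ECD libraries (circles) and the 2 Fc libraries (squares), with a line at each group's mean. Lgr5, Slc14a1, Cyp2e1, Scn2b, Phlda1 and Sox4 passed the test. Smoc2 overlapped between the groups.

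Among 24 tested Wnt target genes of 28 listed, 2 fell (Lgr5 and Sox4) and 1 rose (Mmp7). The groups did not overlap for 15 lower and 1 higher, and the median change was -0.89, with -1.29 against control 1 and -0.53 against control 2. Sox4, a transcription factor of progenitors, had 3.21, 3.67 and 2.99 FPKM in LGR5-ECD cells and 10.8 and 16.4 FPKM in Fc cells. It was low in all 3 replicates, with a change of -1.74 (SE 0.24, limma adjusted p = 0.0201). Axin2, the feedback inhibitor most used as a Wnt readout, had 35.7, 18.7 and 17.4 FPKM in LGR5-ECD cells, against 90.4 and 39.3 FPKM in Fc cells. Its groups did not overlap, but the change of -1.36 (SE 0.36) had a limma adjusted p of 0.119. Mmp7, a protease that activates defensins and is on the Paneth list as well, moved the other way and is described with that list. Neither direction held a call without control 2 or without LGR5-ECD replicate 2, while 4 members were lower without replicate 1 and 1 without control 1.

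Some Wnt targets overlapped between the groups. Ephb2, a receptor that positions cells along the crypt, had 71.2, 81.1 and 56.0 FPKM in LGR5-ECD cells and 77.9 and 54.8 FPKM in Fc cells. Myc, a growth regulator, had 79.7, 85.6 and 61.3 FPKM in LGR5-ECD cells and 138.7 and 70.2 FPKM in Fc cells. Ccnd1, cyclin D1, had 91.1, 106.6 and 88.0 FPKM in LGR5-ECD cells and 100.6 and 51.6 FPKM in Fc cells. For each of these genes 2 of the 3 LGR5-ECD values lay between the controls. Ephb3, a related receptor, had 6.74, 5.71 and 2.18 FPKM in LGR5-ECD cells and 22.6 and 9.88 FPKM in Fc cells, without passing the test (limma adjusted p = 0.109). Cd44 had 17.4, 10.6 and 13.6 FPKM in LGR5-ECD cells and 27.1 and 19.2 FPKM in Fc cells. Sox9 had 30.5, 30.1 and 17.7 FPKM in LGR5-ECD cells and 60.4 and 39.9 FPKM in Fc cells. Both were lower without overlap and without a call (limma adjusted p = 0.184 and 0.146).

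Of the genes for R-spondin and Wnt receptors and their regulators, 17 of 21 were tested and Lgr5 alone was called. Lgr4, the other R-spondin receptor of crypt cells, had 25.9, 20.2 and 20.9 FPKM in LGR5-ECD cells and 22.02 and 12.7 FPKM in Fc cells, with overlap and a change of 0.38 (SE 0.24, limma adjusted p = 0.447). Rnf43, the ligase that removes Frizzled, had 56.6, 36.2 and 27.3 FPKM in LGR5-ECD cells and 92.9 and 79.0 FPKM in Fc cells. Every LGR5-ECD value was below both controls, and the change of -1.14 (SE 0.27) had a limma adjusted p of 0.0877. Its partner Znrf3 had 11.2, 12.1 and 6.05 FPKM in LGR5-ECD cells and 15 and 11.2 FPKM in Fc cells. That Lgr4 missed the threshold does not show equal levels, and the difference between its response and that of Lgr5 was not tested.

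Of 9 tested markers of reserve or regenerative stem cells none was called, and the median change was -0.29. Hopx, a homeodomain protein of slow-cycling cells, had 10.9, 10.6 and 12.4 FPKM in LGR5-ECD cells and 21.2 and 15.7 FPKM in Fc cells (limma adjusted p = 0.197). Ly6a, a marker of regenerating epithelium, overlapped between the groups, with 11.1, 14.2 and 9.71 FPKM in LGR5-ECD cells and 9.48 and 11.8 FPKM in Fc cells. Clu was at or under 1.45 FPKM in every LGR5-ECD and Fc library.

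Digestive enzymes of absorptive enterocytes were higher in LGR5-ECD cells. Of 15 tested genes for brush border digestive enzymes 4 rose and none fell, and in 12 all LGR5-ECD libraries were above both controls. The median change was 1.06, with 0.86 against control 1 and 1.22 against control 2. The 4 were Sis, Ace, Enpep and Xpnpep2. Sis, sucrase-isomaltase, had 34.6, 32.1 and 25.2 FPKM in LGR5-ECD cells, against 6.62 and 9.42 FPKM in Fc cells. Its change of 1.82 (SE 0.24, limma adjusted p = 0.0193) was seen in all 3 replicates. The list held 3 to 5 calls without LGR5-ECD replicate 1, replicate 3 or control 1, and none without LGR5-ECD replicate 2 or control 2.

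Xpnpep2, an aminopeptidase, had 6.72, 8.14 and 7.45 FPKM in LGR5-ECD cells and 2.26 and 1.78 FPKM in Fc cells (change 1.48, SE 0.26, limma adjusted p = 0.0442). Enpep, glutamyl aminopeptidase, had 14.4, 29.1 and 15.7 FPKM in LGR5-ECD cells and 5.48 and 5.85 FPKM in Fc cells. Ace, angiotensin-converting enzyme, had 48.1, 48.3 and 40.6 FPKM in LGR5-ECD cells and 24.6 and 19.0 FPKM in Fc cells. Both had a limma adjusted p of 0.0492, close to the threshold. Alpi, intestinal alkaline phosphatase, had 90.7, 162 and 127.3 FPKM in LGR5-ECD cells and 28.1 and 76.3 FPKM in Fc cells, and its change of 1.39 (SE 0.40, limma adjusted p = 0.139) did not pass the test. It was 2.10 against control 1 and 0.68 against control 2.

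Nutrient transporters gave 2 rises and no fall among 25 tested genes, with a median change of 0.74 and 14 members above both controls in every replicate. Slc51a, a subunit of the bile acid exporter, had 21.6, 32.7 and 40.3 FPKM in LGR5-ECD cells, against 5.27 and 6.45 FPKM in Fc cells (change 2.21, SE 0.41, limma adjusted p = 0.0460). Slc7a9, a transporter of cystine and basic amino acids, had 17.8, 15.8 and 13.5 FPKM in LGR5-ECD cells and 5.09 and 5.39 FPKM in Fc cells (change 1.41, SE 0.24, limma adjusted p = 0.0433). In both genes the lowest LGR5-ECD library was well above the higher control. The list held no call without LGR5-ECD replicate 2 or without control 2, and 1 without replicate 1 or without control 1.

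Fat absorption genes had no call among 22 tested, although 13 lay above both controls in every replicate, and their median change was 0.69. Apob, the structural protein of chylomicrons, had 54.7, 49.1 and 68.7 FPKM in LGR5-ECD cells and 30.6 and 22.8 FPKM in Fc cells, with a limma adjusted p of 0.0539. Mogat2, which rebuilds triglyceride, had 46.8, 68.5 and 43.4 FPKM in LGR5-ECD cells and 15.7 and 23.1 FPKM in Fc cells, with a limma adjusted p of 0.0505. Both lay just outside the threshold. Apoa4, another apolipoprotein, overlapped, with 121.1, 101.5 and 126.2 FPKM in LGR5-ECD cells and 28.9 and 123.6 FPKM in Fc cells.

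Of 17 tested microvillus genes only Krt20 was called. Krt20, a keratin of differentiated villus cells, had 40.9, 37.1 and 36.6 FPKM in LGR5-ECD cells and 13.6 and 16.4 FPKM in Fc cells. The replicates were close together and all above the controls, with a change of 1.30 (SE 0.20, limma adjusted p = 0.0302), which was 0.0927 without LGR5-ECD replicate 2 and 0.0706 without control 2. The list's median was 0.32, and Myo7b, a myosin of microvillus tips, had the opposite sign at 62.7, 52.96 and 45.8 FPKM in LGR5-ECD cells and 89.9 and 82.2 FPKM in Fc cells. Hnf4g, a nuclear receptor of enterocytes, was the 1 call among 20 intestinal transcription factors. It had 14.9, 15.4 and 12.1 FPKM in LGR5-ECD cells and 5.80 and 4.93 FPKM in Fc cells (change 1.24, SE 0.23, limma adjusted p = 0.0476), and it was not called without any 1 of LGR5-ECD replicates 1 and 2 or the controls. Its relative Hnf4a overlapped, with 244.6, 267.8 and 240.8 FPKM in LGR5-ECD cells and 276.3 and 177.9 FPKM in Fc cells. The median of the transcription factors was 0.13, and it was -0.10 after quantile normalization.

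**Figure D3:**
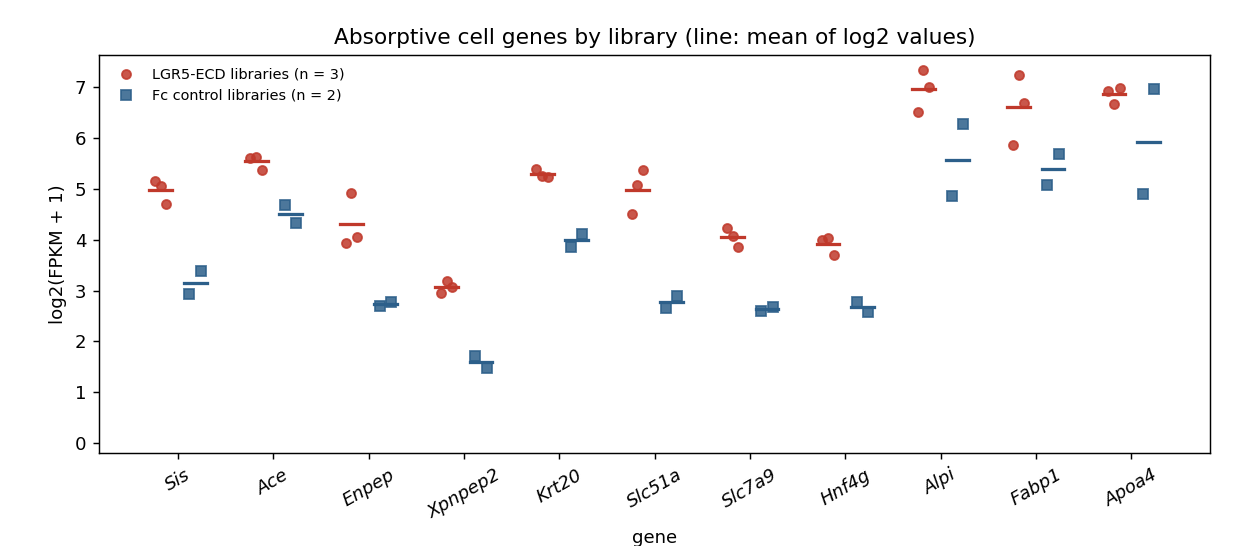
Levels of 11 absorptive cell genes as log2(FPKM + 1) in each of the 3 LGR5-ECD libraries (circles) and the 2 Fc libraries (squares), with a line at each group's mean. All but Alpi, Fabp1 and Apoa4 passed the test, and Apoa4 overlapped, with control 2 as high as the LGR5-ECD libraries.

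Paneth cell genes had the greatest rises. Of 24 tested markers 9 rose and none fell, and 18 lay above both controls in every replicate and 1 below. The change was negative for 5 markers, none of them called: Pla2g2a, Wnt3, Fgfrl1, Spib and Dll4. Fgfrl1, a receptor-like protein that binds fibroblast growth factors, was the 1 below both controls, at 11.1, 8.72 and 1.94 FPKM in LGR5-ECD cells and 25.9 and 13.3 FPKM in Fc cells. The median change was 3.54, but it was 2.01 against control 1 and 4.94 against control 2. The summed level of the list was 3382, 7444 and 5950 FPKM in LGR5-ECD cells, against 1174 and 106.4 FPKM in Fc cells. The lowest LGR5-ECD library thus lay above the higher control, while the controls themselves were far apart. The list gave 18 rises without control 1, none without control 2, 2 without LGR5-ECD replicate 2, and 10 and 8 without replicates 1 and 3.

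Among the defensin alpha genes, which encode the antimicrobial peptides of Paneth granules, 23 names were tested, 9 rose and 18 did not overlap. The 9 were Defa2, Defa5, Defa21, Defa22, Defa26 and 4 predicted names that RefSeq gives to defensins. The summed level was 5115, 9254 and 9749 FPKM in LGR5-ECD cells and 1281 and 36.7 FPKM in Fc cells. Defa22 had 175.3, 136.4 and 476.4 FPKM in LGR5-ECD cells, against 3.36 and 1.15 FPKM in Fc cells (change 6.21, SE 0.75, limma adjusted p = 0.0184). Defa21 had 125.7, 127.5 and 406.7 FPKM in LGR5-ECD cells, against 2.86 and 2.54 FPKM in Fc cells (change 5.67, SE 0.69, limma adjusted p = 0.0184). This pair, whose promoter is printed above, was low in both controls, with changes of 5.70 and 5.60 against control 1 alone. Defensins are near copies of each other, so the division of fragments among them is uncertain. Neither gene was called without control 2.

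Other Paneth products behaved in the same direction. Ang4, an antimicrobial ribonuclease, had 167.1, 165.3 and 172.8 FPKM in LGR5-ECD cells and 26.3 and 2.57 FPKM in Fc cells (change 4.10, SE 0.63, limma adjusted p = 0.0302). Mptx2, a mucosal pentraxin, had 28.8, 54.8 and 62.2 FPKM in LGR5-ECD cells and 5.94 and 0.61 FPKM in Fc cells. Mmp7 had 24.4, 28.4 and 36.7 FPKM in LGR5-ECD cells and 8.23 and 5.13 FPKM in Fc cells (change 2.02, SE 0.31, limma adjusted p = 0.0302). All 3 genes were higher in every replicate than in either control. Clps, colipase, had 276, 453.8 and 317.9 FPKM in LGR5-ECD cells and 63.2 and 15.1 FPKM in Fc cells. Lyz1, the lysozyme of Paneth cells, had 570.7, 2073 and 1287 FPKM in LGR5-ECD cells and 184.3 and 5.95 FPKM in Fc cells, and with a change of 5.004 (SE 1.06) it did not pass the test (limma adjusted p = 0.0703). The calls named here were lost without control 2 and without LGR5-ECD replicate 2. The Paneth list shares Mmp7 with the Wnt list and holds Clps and Pnliprp2, which are also pancreatic genes.

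Goblet cell markers gave 4 rises and no fall among 22 tested, with a median change of 1.16 and 11 members above both controls in every replicate. The 4 were Ccl6, Guca2a, Spink4 and Sytl2. Ccl6, a chemokine, had 25.9, 73.4 and 55.1 FPKM in LGR5-ECD cells, against 2.73 and 2.11 FPKM in Fc cells (change 3.82, SE 0.42, limma adjusted p = 0.0184). Guca2a, guanylin, which regulates fluid secretion, had 27.0, 72.3 and 95.0 FPKM in LGR5-ECD cells and 8.04 and 10.8 FPKM in Fc cells (change 2.49, SE 0.43, limma adjusted p = 0.0437). For these genes the controls were close to each other. Muc2, the main mucin, had 145.4, 359.9 and 442.3 FPKM in LGR5-ECD cells and 46.6 and 84.0 FPKM in Fc cells, with a change of 2.17 (SE 0.50, limma adjusted p = 0.0819). Zg16, a granule lectin of goblet cells, overlapped, with 279.6, 851.3 and 1056 FPKM in LGR5-ECD cells and 65.0 and 483.6 FPKM in Fc cells. The list's sum overlapped as well, at 966, 2560 and 2951 FPKM in LGR5-ECD cells and 443 and 1046 FPKM in Fc cells. Foxa3, a transcription factor of secretory cells, had the opposite sign, at 9.86, 10.3 and 9.74 FPKM in LGR5-ECD cells and 27.8 and 16.8 FPKM in Fc cells (limma adjusted p = 0.0715). The list held 9 calls without LGR5-ECD replicate 1, 1 without replicate 2, 3 without replicate 3, 1 without control 1 and none without control 2.

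Secreted antimicrobial and villus base genes had 1 call, Reg4, among 14 tested, and a median change of 1.23. Reg4, a secreted lectin, had 26.9, 26.1 and 18.7 FPKM in LGR5-ECD cells and 5.33 and 0 FPKM in Fc cells (change 3.29, SE 0.58, limma adjusted p = 0.0442). Dmbt1, a mucosal scavenger protein, had 2519, 4042 and 4135 FPKM in LGR5-ECD cells and 1479 and 986.3 FPKM in Fc cells, without overlap and without a call (limma adjusted p = 0.0963). Reg4 was lost without LGR5-ECD replicate 1 or 2 or control 2.

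Among 14 tested enteroendocrine markers of 25, Chga alone was called. Chga, chromogranin A, had 13.9, 5.74 and 14.9 FPKM in LGR5-ECD cells and 1.70 and 2.26 FPKM in Fc cells (change 1.98, SE 0.37, limma adjusted p = 0.0460), and the call held without LGR5-ECD replicate 2 but was lost without any other 1 of the 5 libraries. Chgb, a related granin, had 12.02, 4.66 and 14.9 FPKM in LGR5-ECD cells and 2.26 and 0 FPKM in Fc cells. Ghrl, the hormone ghrelin, had 1.81, 2.66 and 0 FPKM in LGR5-ECD cells and 7.07 and 144.2 FPKM in Fc cells. Its difference of -3.98 (SE 1.02, limma adjusted p = 0.108) was -1.89 against control 1 and -6.06 against control 2.

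Tuft cell markers had no call among 21 tested, and the LGR5-ECD mean lay between the controls for 18 of them. The summed level was 139.7, 137 and 146.4 FPKM in LGR5-ECD cells, against 84.4 and 362.1 FPKM in Fc cells. The median change was 0.56 against control 1 and -1.21 against control 2. Dclk1, a kinase of tuft cells, had 6.28, 5.60 and 9.14 FPKM in LGR5-ECD cells and 2.27 and 8.84 FPKM in Fc cells. Control 2 was thus high for tuft cell genes and Ghrl and low for Paneth cell genes, and its part in the results was not tested beyond the values without it.

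**Figure D4:**
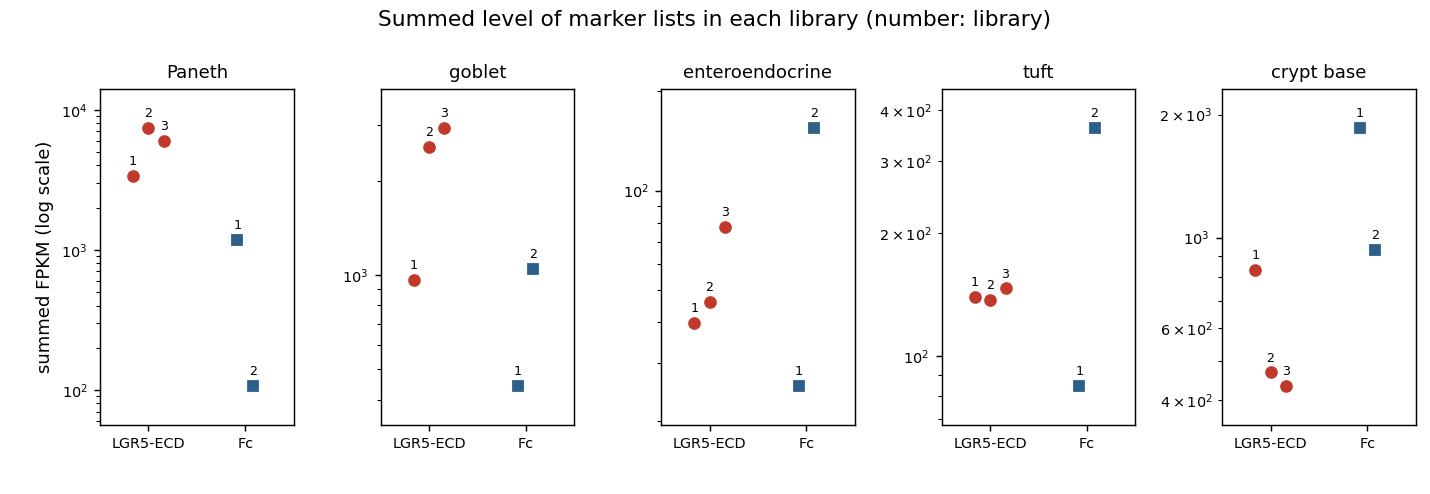
Summed FPKM of 5 marker lists in each library, on log axes that differ between panels, with library numbers beside the points. Paneth sums were 3382 to 7444 FPKM in LGR5-ECD libraries and 106.4 to 1174 FPKM in Fc libraries, while tuft sums in LGR5-ECD libraries lay between the 2 controls.

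Notch pathway and secretory commitment genes had 1 call, the fall of Sox4, among 15 tested, with a median change of -0.49. Atoh1, the transcription factor that commits cells to the secretory fate, had 13.0, 24.7 and 14.4 FPKM in LGR5-ECD cells and 10.8 and 3.51 FPKM in Fc cells. Its change of 1.28 (SE 0.39) did not pass the test (limma adjusted p = 0.146). Hes1, a Notch target that opposes Atoh1, had 12.5, 13.9 and 11.8 FPKM in LGR5-ECD cells and 21.6 and 16.3 FPKM in Fc cells (limma adjusted p = 0.237). Both genes separated the groups without overlap, with opposite signs, and neither was called. In the list of 15, 2 members lay above both controls in every replicate and 7 below. Over all genes tested, 18.2% lay above and 12.7% below, so the 2 are near the share over all genes. A link between the changes of Atoh1 and Hes1 was not tested.

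Immediate early genes, which are known to respond quickly to growth factors and to tissue dissociation, gave 4 rises and no fall among 20 tested, with a median change of 0.93. Fos, a subunit of AP-1, had 37.3, 71.5 and 74.6 FPKM in LGR5-ECD cells and 5.02 and 11.1 FPKM in Fc cells (change 2.80, SE 0.41, limma adjusted p = 0.0250). Egr1, a zinc finger factor, had 34.6, 92.5 and 60.9 FPKM in LGR5-ECD cells and 11.5 and 10.2 FPKM in Fc cells (change 2.32, SE 0.42, limma adjusted p = 0.0451). The other 2 were Zfp36, which destabilizes mRNA, and Atf3, a stress factor. Every LGR5-ECD library lay above both controls for 12 members. The summed level was 338.9, 555.3 and 503 FPKM in LGR5-ECD cells and 164 and 156.8 FPKM in Fc cells. With Rspo1, against the same controls, the sum was 532.1, 413.6 and 662.8 FPKM. Fos, Egr1 and Atf3 passed the test there too, with limma adjusted p of 0.0185, 0.0169 and 0.0124. The labels give no sort or harvest times for the libraries. The 4 calls became 6 without LGR5-ECD replicate 1, none without replicate 2, 1 without replicate 3, 1 without control 1 and none without control 2.

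No member of the lists of G2 and mitosis genes and of S phase genes was called. Of 30 tested genes of G2 and mitosis 20 lay above both controls in every replicate and none below, with a median change of 0.53. Mki67, the proliferation antigen, had 98.6, 83.9 and 105.4 FPKM in LGR5-ECD cells and 57.8 and 46.0 FPKM in Fc cells (change 0.88, SE 0.19, limma adjusted p = 0.0736). Nusap1, a spindle protein, had 20.7, 20.9 and 26.1 FPKM in LGR5-ECD cells and 11.01 and 7.70 FPKM in Fc cells, just outside the threshold (limma adjusted p = 0.0515). Of 28 S phase genes 5 lay above and 2 below both controls, with a median of 0.18. Over all genes tested, 18.2% lay above and 12.7% below, so the 5 are near the share over all genes. Cdkn1a, the p21 inhibitor, had 25.5, 36.8 and 43.2 FPKM in LGR5-ECD cells and 16.6 and 23.1 FPKM in Fc cells (limma adjusted p = 0.206), and none of 18 tested p53 targets and CDK inhibitors was called.

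The lists of cholesterol synthesis, unfolded protein response and fatty acid oxidation genes had positive medians but no calls. Of 24 cholesterol synthesis genes 16 lay above both controls in every replicate and none below, with a median change of 0.79. Fdps, farnesyl diphosphate synthase, had 9.54, 18.8 and 18.4 FPKM in LGR5-ECD cells and 4.14 and 4.04 FPKM in Fc cells, where the controls were close to each other. Of 19 unfolded protein response genes 10 lay above and none below, with a median of 0.56, and of 21 genes of fatty acid oxidation 7 lay above and none below, with a median of 0.49. Hsp90b1, a chaperone of the endoplasmic reticulum, had 49.6, 53.9 and 51.1 FPKM in LGR5-ECD cells and 31.3 and 25.1 FPKM in Fc cells (limma adjusted p = 0.0728).

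Interferon response genes, which viral vectors can induce, had no call among 45 tested. In 13 of them every LGR5-ECD library lay below both controls and in 2 above, and the median change was -0.30. The shares over all genes tested were 12.7% below and 18.2% above. Isg15, a ubiquitin-like protein, had 3.92, 0.66 and 0.45 FPKM in LGR5-ECD cells and 6.44 and 11.2 FPKM in Fc cells (change -2.06, SE 0.49, limma adjusted p = 0.0874). Oas2, a sensor of double-stranded RNA, had 10.95, 8.70 and 8.06 FPKM in LGR5-ECD cells and 19.1 and 30.3 FPKM in Fc cells (change -1.30, SE 0.28, limma adjusted p = 0.0722). Irf7, their transcription factor, had 70.6, 48.0 and 30.5 FPKM in LGR5-ECD cells and 84.9 and 78.5 FPKM in Fc cells. Without replicate 3 the list's median was -0.13. With Rspo1, against the same controls, it was -1.28, so the lower level was not particular to LGR5-ECD. Irf7 had 7.65, 7.26 and 15.3 FPKM with Rspo1. Neither MHC list had a call, with medians of -0.11 for 8 class II genes and 0.10 for 16 class I genes (-0.01 after quantile normalization).

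Cytosolic ribosomal protein genes had no call among 76 tested, but 39 lay below both controls in every replicate, against 2 above. Their median change was -0.35, and it was -0.45 after median-ratio scaling, -0.61 after quantile normalization and -0.25 without replicate 3. The summed level did not overlap between the groups, at 17580, 20480 and 14580 FPKM in LGR5-ECD cells and 21430 and 21770 FPKM in Fc cells. Many of these genes have processed copies in the genome, so single values are uncertain.

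**Figure D5:**
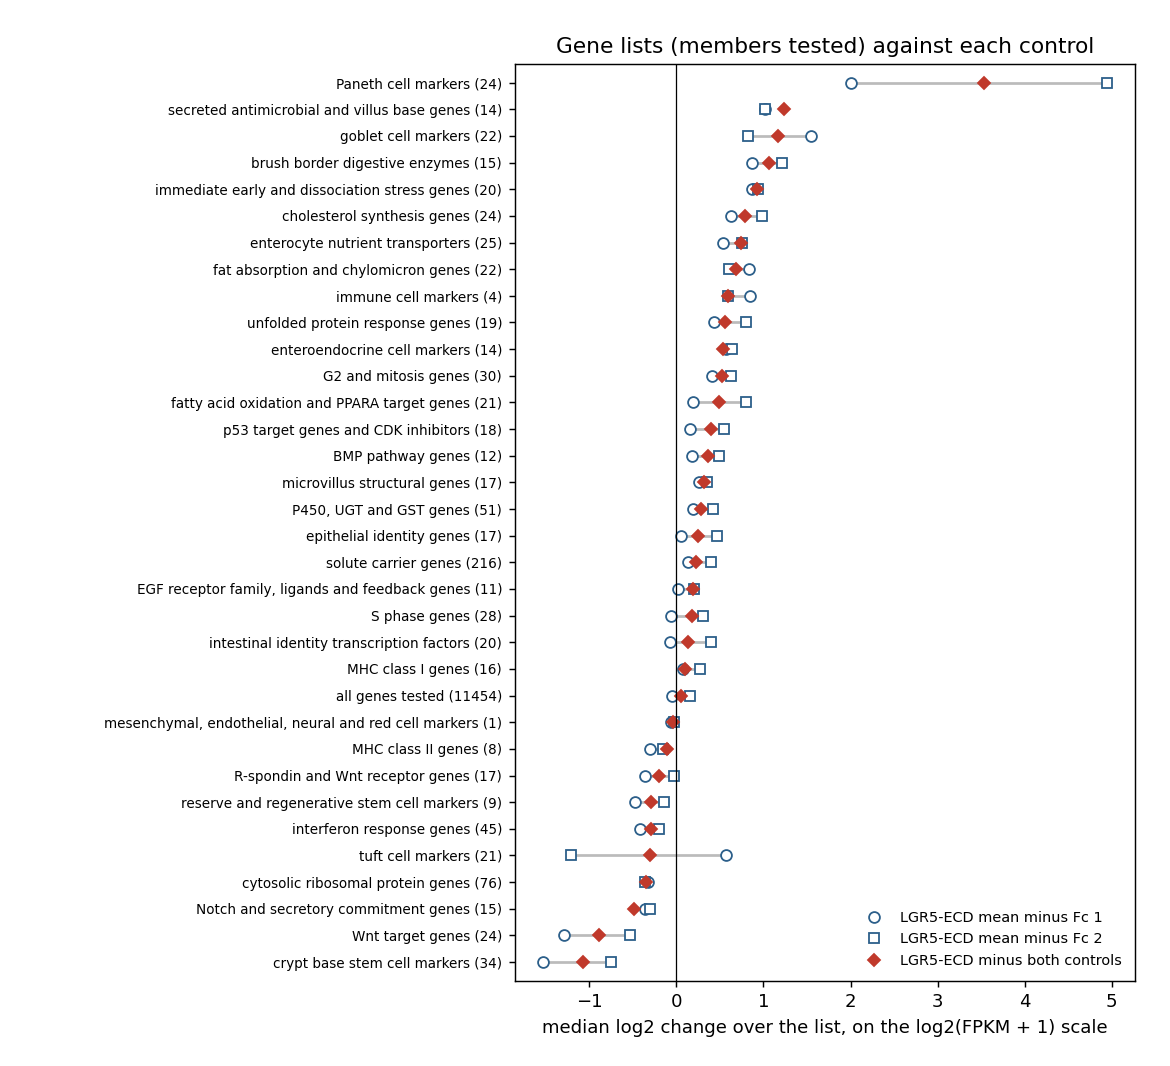
Median log2 change of each gene list on the log2(FPKM + 1) scale, with the number of members tested in brackets: circles are LGR5-ECD minus control 1, squares LGR5-ECD minus control 2, and diamonds LGR5-ECD minus both controls. Paneth markers were highest against either control and crypt base markers lowest against both together, while tuft markers changed sign between the controls.

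Outside the lists, the greatest falls included several genes of low level. Pgc, pepsinogen C, had 1.33, 0.10 and 0 FPKM in LGR5-ECD cells and 11.98 and 4.56 FPKM in Fc cells (change -2.63, SE 0.45, limma adjusted p = 0.0437). Dmpk, a protein kinase known from myotonic dystrophy, had 1.62, 1.27 and 0 FPKM in LGR5-ECD cells and 9.21 and 9.68 FPKM in Fc cells (change -2.53, SE 0.40, limma adjusted p = 0.0319). Gramd1a, a sterol transfer protein, had 1.11, 0.73 and 0 FPKM in LGR5-ECD cells and 7.05 and 7.47 FPKM in Fc cells. In all of these the value of 0 was in the shallow replicate 3, and the other replicates were also below both controls. Phf21b, a PHD finger protein, had 1.81, 1.61 and 2.21 FPKM in LGR5-ECD cells and 9.84 and 8.50 FPKM in Fc cells (change -1.83, SE 0.24, limma adjusted p = 0.0193). Tubb2b, a tubulin, Kif12, a kinesin, Stra6l, a receptor for retinol-binding protein, Cpn1, a carboxypeptidase, Ccdc3, Sorcs2 and Zfp579 also fell, by 1.61 to 2.23 on the log2 scale except Ccdc3 at -2.39.

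Rises outside the lists included Cox7a1, a subunit of cytochrome c oxidase, at 19.0, 21.1 and 26.3 FPKM in LGR5-ECD cells and listed at 0 in both controls, so no fold is given. Raver1-fdx1l, a readthrough of neighbouring genes whose fragments may belong to either, had 5.51, 12.2 and 10.7 FPKM in LGR5-ECD cells and 1.48 and 0.21 FPKM in Fc cells. Nupr1, a stress-induced nuclear protein on the Paneth list, had 26.7, 66.2 and 62.5 FPKM in LGR5-ECD cells and 4.48 and 7.06 FPKM in Fc cells (change 2.88, SE 0.37, limma adjusted p = 0.0193). Of 216 solute carriers tested, a list that leaves out Slc51a and its partner Slc51b because their symbols carry no member number, 2 rose (Slc7a9 and Slc35b1, a nucleotide sugar transporter) and 2 fell (Slc14a1 and Slc27a1, a fatty acid transport protein). Of 51 genes of the cytochrome P450, UDP-glucuronosyltransferase and glutathione S-transferase families, the fall of Cyp2e1 was the single call. Over all genes tested, 0.445% were called higher and 0.271% lower.

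Levels with the opposite virus, which used the same controls and so is not independent, are set beside some of these genes. Lgr5 had 8.31, 2.84 and 4.28 FPKM with LGR5-ECD, 96.5, 112.7 and 100.2 FPKM with Rspo1, and 40.6 and 22.02 FPKM with Fc. Sis had 34.6, 32.1 and 25.2 FPKM with LGR5-ECD, 3.86, 4.46 and 3.48 FPKM with Rspo1, and 6.62 and 9.42 FPKM with Fc. For both genes the Fc level lay between those of the other viruses. Defa5 had 47.2, 124.6 and 111.2 FPKM with LGR5-ECD, 63.8, 47.9 and 27.7 FPKM with Rspo1, and 11.7 and 0 FPKM with Fc. For this defensin both viruses had levels above both controls. The same was seen in the Paneth list as a whole, whose summed level was 3382, 7444 and 5950 FPKM with LGR5-ECD, 5061, 3860 and 3035 FPKM with Rspo1, and 1174 and 106.4 FPKM with Fc, with median changes of 3.54 for LGR5-ECD and 3.43 for Rspo1 against Fc. For the immediate early genes the medians were 0.93 for LGR5-ECD and 1.29 for Rspo1 against Fc, and Fos had 37.3, 71.5 and 74.6 FPKM with LGR5-ECD, 63.98, 32.5 and 66.5 FPKM with Rspo1, and 5.02 and 11.1 FPKM with Fc. For both lists the summed level with either virus lay above both controls in every library.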

How the data were processed

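The authors deposited 1 table of FPKM values with 8 libraries and 24510 rows, named by gene symbol. The submitters' processing notes name the aligner TopHat, the counter HTSeq, Cufflinks, DESeq2 and build mm9, without versions. The sources used here do not give the annotation or strandedness. Promoters come from RefSeq on another build (GRCm38.p6), and no coordinates were taken from the table.

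Of the rows, 27 with a date for a symbol were left out, 391 identical repeats were dropped, and 89 symbols on several rows were summed, leaving 23969. A gene was tested where at least 2 of the 8 libraries reached an FPKM of 1, which held for 11454. In R 4.3.3 the functions lmFit, contrasts.fit and eBayes (trended) of limma 3.58.1 were run on log2(FPKM + 1) over 8 libraries in 3 groups, with no covariate and 5 residual degrees of freedom. Tests were two-sided. SE is the moderated standard error. Fold changes on this scale understate the change of low genes. Steps were tested on simulated data. Tables were made with pandas 2.3.3 and NumPy 2.4.6 under Python 3.11.15, and figures with matplotlib 3.10.9.

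Depth was estimated from the steps between low values of genes with a single transcript length. Only 33.3% to 55.7% of low values lay within 0.1 of a whole fragment, so fragments could not be counted back and a count model was not used.

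The comparison and the 33 gene lists were chosen with earlier results of these data known, and lists were given no test. Named genes were up to 15 rises and 15 falls among called genes with a mean of at least 5 FPKM in the higher group and no overlap, without predicted genes and small non-coding RNA. Up to 4 called members of each list, up to 2 uncalled ones of lowest p, and chosen key genes were added. Other members of the lists are named as examples chosen after their values were seen. The labels do not say how the 3 and 2 biological replicates relate to mice, so p-values measure the spread between these samples. The alternatives were another pseudocount, other filters, other scalings, fewer libraries in the fit, library weights, another treatment of repeated symbols, and leaving out each library.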

Additional observations from a re-analysis of the deposited data

How the results depend on the processing

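All 82 called genes kept their direction under every alternative that tested them, but the calls themselves depended on the processing. Some list medians changed sign. With quantile normalization, that of the intestinal transcription factors turned from 0.13 to -0.10 and that of MHC class I from 0.10 to -0.01. The mesenchymal, endothelial, neural and red cell list, with 1 gene tested, turned from -0.04 to 0.05 there. Without LGR5-ECD replicate 3, the median of MHC class II turned from -0.11 to 0.03. That of EGF receptor family, ligand and feedback genes turned from 0.19 to -0.005. Calls were mostly rises (51 higher, 31 lower) with the values as deposited, and slightly more often falls with either rescaling (45 and 52 higher). Genes called higher and lower numbered 17 and 3 with a pseudocount of 0.25, 0 and 4 with no filter on low values (1266 higher and 935 lower at an unadjusted p under 0.05), 4 and 0 with only the LGR5-ECD and Fc libraries in the fit (838 and 474 unadjusted), and 19 and 7 with library weights, where LGR5-ECD replicate 3 had a weight of 0.328. Median-ratio scaling gave 47 lower and quantile normalization 56 lower. Leaving out 1 library at a time gave 0 to 153 higher and 0 to 49 lower. In each fit without a control, the lone control is assumed to vary like the other groups. Of the 82 calls, 19, 2, 4 and 24 remained with the pseudocount of 0.25, no filter, fewer libraries and library weights, 70 with median-ratio scaling, 74 with quantile normalization, and 69 of the 76 still tested with a filter at 5 FPKM. No gene was called in all 5 fits without 1 library.

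Crypt base genes called lower numbered 1 with the pseudocount of 0.25, 0 with no filter, 8 and 10 with median-ratio scaling and quantile normalization, 0 with fewer libraries, 1 with library weights, and 0 to 10 without 1 library. Wnt targets called higher numbered 0 with no filter, with fewer libraries and with library weights, and 0 to 1 without 1 library. Those called lower numbered 0 with no filter and with fewer libraries, 5 with quantile normalization, 1 with library weights, and 0 to 4 without 1 library. Brush border enzymes called higher numbered 1 with the pseudocount of 0.25, 0 with no filter and with fewer libraries, 1 with library weights, and 0 to 5 without 1 library. Where no value shows it, the cause was not tested. The shallow replicate 3 limits what can be seen in genes of low level. No paired analysis was possible because the control columns carry no number tied to a sample.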

Other observations

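A few genes stood out by 1 library or by the control group, and they are named here after their values were seen. Nanos3, an RNA-binding protein of germ cells, was listed at 0 FPKM in all 3 LGR5-ECD libraries and had 3.23 and 5.31 FPKM in the controls. Its level with Rspo1 was 0, 0 and 0.19 FPKM, so it was above 1 FPKM in the control libraries alone. The transcript 1810053B23Rik was listed at 0 in all LGR5-ECD and Rspo1 libraries and had 2.35 and 4.35 FPKM in the controls. Another transcript, 9330175E14Rik, had 0, 0.72 and 0 FPKM with LGR5-ECD, at most 0.28 FPKM with Rspo1, and 3.46 and 3.11 FPKM in the controls. Nanos3 and these transcripts passed the filter through the controls alone. A gene that enters this way can only be lower with LGR5-ECD, so their direction was fixed by the filter. Rasa4, a regulator of Ras, had 4.18, 4.37 and 4.29 FPKM with LGR5-ECD, 2.74, 2.86 and 3.59 FPKM with Rspo1, and 11.9 and 11.5 FPKM with Fc.

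St3gal4, a sialyltransferase, rose in LGR5-ECD cells to 62.1, 82.3 and 69.4 FPKM, against 24.8 and 21.6 FPKM in Fc cells (change 1.57, SE 0.21, limma adjusted p = 0.0193). Coro2a, a coronin of the actin cytoskeleton, had 90.7, 142.2 and 102.4 FPKM in LGR5-ECD cells and 37.7 and 34.9 FPKM in Fc cells (change 1.57, SE 0.22, limma adjusted p = 0.0201). Pdgfa, a growth factor of epithelium that acts on the mesenchyme, fell to 26.5, 24.2 and 28.8 FPKM in LGR5-ECD cells, against 57.3 and 52.6 FPKM in Fc cells (change -1.03, SE 0.18, limma adjusted p = 0.0442). In each of these the spread within a group was small beside the difference, and none was called without control 2. Of the 5 fits without 1 library, St3gal4 and Coro2a were each called in 3 and Pdgfa in 1.

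Snora68, a small nucleolar RNA, was listed at 0 in all LGR5-ECD libraries and in control 2 and had 374.5 FPKM in control 1. Mir686, a microRNA gene, had 47.6 FPKM in LGR5-ECD replicate 2 and 68.6 FPKM in control 2, and was listed at 0 in the other LGR5-ECD libraries and in control 1.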
